A study of Mus musculus with 19 samples.

Results

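Polyadenylated RNA was sequenced from cultured hippocampal neurons after 3 h with Bic/4AP, a pair of drugs that raises network activity. Bicuculline blocks GABA-A receptors, and 4-aminopyridine blocks voltage-gated potassium channels. The comparison set the 3 Bic/4AP libraries against the 3 untreated libraries. Genes entered when they reached 1 RPKM (reads per kilobase of gene, scaled to library depth) or more in at least 3 of these 6 libraries, which kept 14386 of 24058 gene names. All of the neurons came from hippocampi of ICR mice at embryonic day 17 and were kept in culture for 10 days. The untreated cultures received no drug, and a further group of 3 libraries received tetrodotoxin (TTX), which stops action potentials. TTX levels are given only as values beside the comparison, and the labels used here give no duration for that treatment. The series held 19 samples, of which 9 were RNA libraries. No label states whether the 3 libraries of a treatment were separate cultures, and the p-values therefore cover only their spread, which may be technical.

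Neurons answer strong synaptic input with a transcriptional program. Calcium entry and MAP kinase signalling act on factors already present in the nucleus, such as CREB and serum response factor, and these switch on immediate early genes within minutes without new protein synthesis. Many immediate early genes encode transcription factors (the Fos, Egr and Nr4a families, Npas4), and these together with CREB then drive a later set of genes for secreted peptides, growth factors, synaptic proteins and inhibitors of the same signalling pathways.

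Level changes were measured as differences of log2(RPKM + 1), which understates the change of genes at low RPKM, and tested with limma with Benjamini-Hochberg adjustment over all 14386 genes. On the deposited scale 4080 genes (28.4%) were higher and 5884 (40.9%) lower at an adjusted p under 0.05. The size of the change followed the level of the gene. Its median was -0.43 in the lowest decile of genes by mean level, reached -0.59 in the third decile, crossed zero in the eighth decile at 0.03 and was 0.46 in the highest decile, where the median level was 58.2 RPKM. In the highest decile 1266 genes were called higher and 44 lower, whereas in the fourth decile 139 were higher and 851 lower. The Bic/4AP and untreated libraries lay wholly apart in their median deviation in 9 of 10 deciles, each with the smallest p that an exact two-sided permutation test of 3 against 3 can give, 0.1 (0.111 adjusted over the 10 deciles), and p was 0.7 in the eighth. The untreated libraries also differed among themselves along the same axis: untreated 2 minus untreated 1 had a median of 0.23 in the third decile and -0.17 in the highest.

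**Figure D1:**
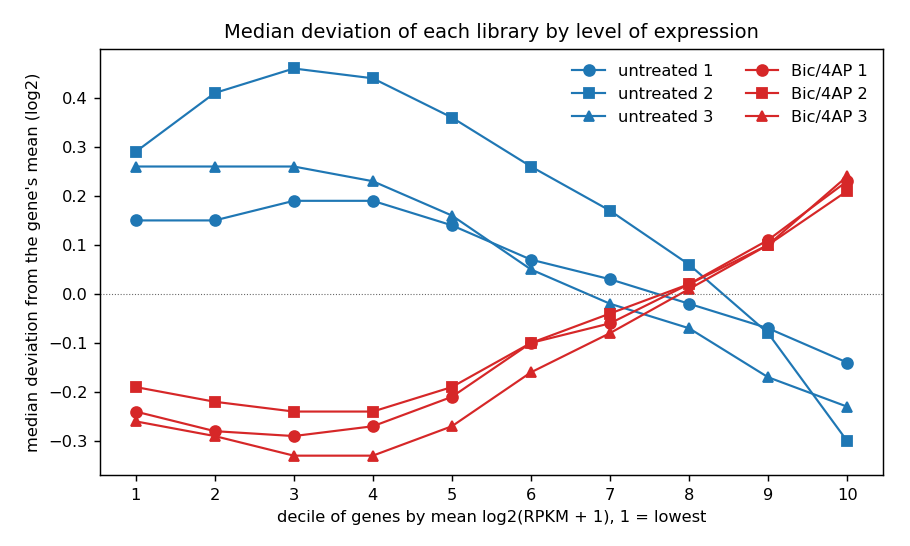
Median deviation of each of the 6 libraries from the gene's mean over the 6, on the log2(RPKM + 1) scale, for genes in deciles by mean level (1 is the lowest). The 3 Bic/4AP libraries (red) go from between -0.33 and -0.24 in the third decile to between 0.21 and 0.24 in the highest, and untreated 2 (blue squares) goes from 0.46 to -0.30.

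Depth moved with the groups as well. The deposited values gave back 5.63, 9.97 and 5.74 M (mega) reads in untreated 1 to 3, against 4.52, 4.59 and 4.34 M in Bic/4AP 1 to 3, so 1 read per kilobase was worth 0.1 to 0.177 RPKM in the first group and 0.218 to 0.23 in the second. The highest messenger RNA row came to 1.11, 1.36 and 1.14 reads per base of gene in untreated 1 to 3. It came to 1.04, 1.14 and 1.03 in Bic/4AP 1 to 3. With TTX it was 1.55, 1.42 and 1.3, at 12.6, 11.9 and 9.68 M reads. Whether values of abundant genes are compressed, so that their RPKM and fold changes depend on depth, was not tested. The level dependence, the lower depth and the treatment cannot be told apart in these libraries. The comparison was therefore repeated after cyclic loess normalization, which removes a trend of the change with level. On that scale 4639 genes passed as higher and 4735 as lower, and after quantile normalization, which moved the median change of all genes from -0.12 to 0.06, 5087 and 4142 did. Of the genes higher on the deposited scale 1242 were not called higher on the loess scale, and 259 of these were lower there. Of the genes lower on the deposited scale 1791 were not called lower on the loess scale, and 0 were higher.

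In what follows a gene is said to have risen or fallen only when it passed in that direction on both scales, which held for 2838 rises (19.7%) and 4093 falls (28.5%). Class counts given without a share are to be read against these shares of all genes. Classes and their members were chosen with earlier results of these data known, so class counts describe and do not test. Beside the deposited log2 change a level-adjusted change is given, which is the change minus the running median of the genes nearest in mean level. It is a description and carries no test, and a value in parentheses with no other name is this level-adjusted log2 change. A change is called large when the gene also changed by 2-fold or more (1 on the log2 scale) both before and after this adjustment, as 445 rises (3.09%) and 1499 falls (10.4%) did.

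**Figure D2:**
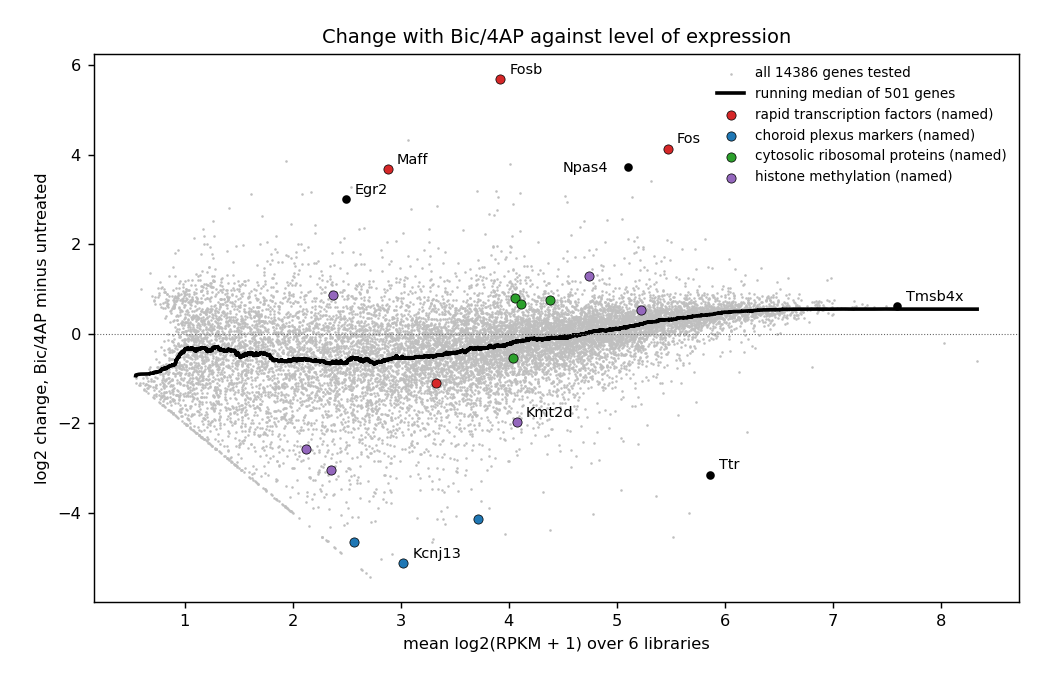
Log2 change with Bic/4AP against mean log2(RPKM + 1) for the 14386 genes (grey), with the running median (black line) and named members of 4 classes in colour. The line is negative and uneven at low levels and then climbs to a positive plateau. Tmsb4x, at a log2 change of 0.62, lies on the line, and Fosb, at 5.70, and Kcnj13, at -5.13, lie far from it.

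The most abundant messages show what the adjustment does. Tmsb4x, which encodes an actin-binding thymosin, stood at 168, 137 and 163 RPKM untreated and at 230, 248 and 238 with Bic/4AP. The groups did not overlap, and the log2 change was 0.62 (SE 0.09, limma adjusted p = 0.000175). Its level-adjusted change was 0.06, and on the loess scale the gene was 0.31 lower. Stmn2, a microtubule regulator of growing axons (deposited log2 change 0.63), likewise passed as higher on the deposited scale and as lower on the loess scale, at -0.26. No direction is given for genes of this kind.

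Some features of the untreated libraries touch many of the falls. Of the 1499 large falls, 1087 (72.5%) had untreated 2 as the lowest of the untreated libraries, against 1984 (48.5%) of the 4093 falls of any size, 26.5% of all genes tested and 7.64% of the large rises. Of the genes that fell, 714 were at 1 RPKM or more in all 3 untreated libraries and in no Bic/4AP library, so they entered the comparison through the untreated group alone, and 188 of the rises entered through the Bic/4AP group alone. Among the large changes, 481 of the 1499 falls entered through the untreated group alone and 70 of the 445 rises through Bic/4AP alone. A gene that entered through 1 group alone had to differ to be counted. Such genes described below include Kcnj13, Tnfrsf25, Crocc, Aifm3, Robo3, Col9a3, Cox8b and Bbc3, all through the untreated group. Fosl1, Baz1a and Ptger4 entered through the Bic/4AP group alone. Markers of choroid plexus epithelium, the secretory lining of the brain's ventricles, summed to 643 to 953 RPKM untreated, 74.3 to 90 with Bic/4AP and 85.8 to 94.2 with TTX. Small nucleolar and Cajal body RNAs, which carry no poly(A) tail, summed to 1428 to 2041, 248 to 316 and 258 to 325. What these differences between libraries contribute to the falls of other genes was not tested. In bulk RNA, fewer cells of a type and less RNA per cell cannot be told apart.

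**Figure D3:**
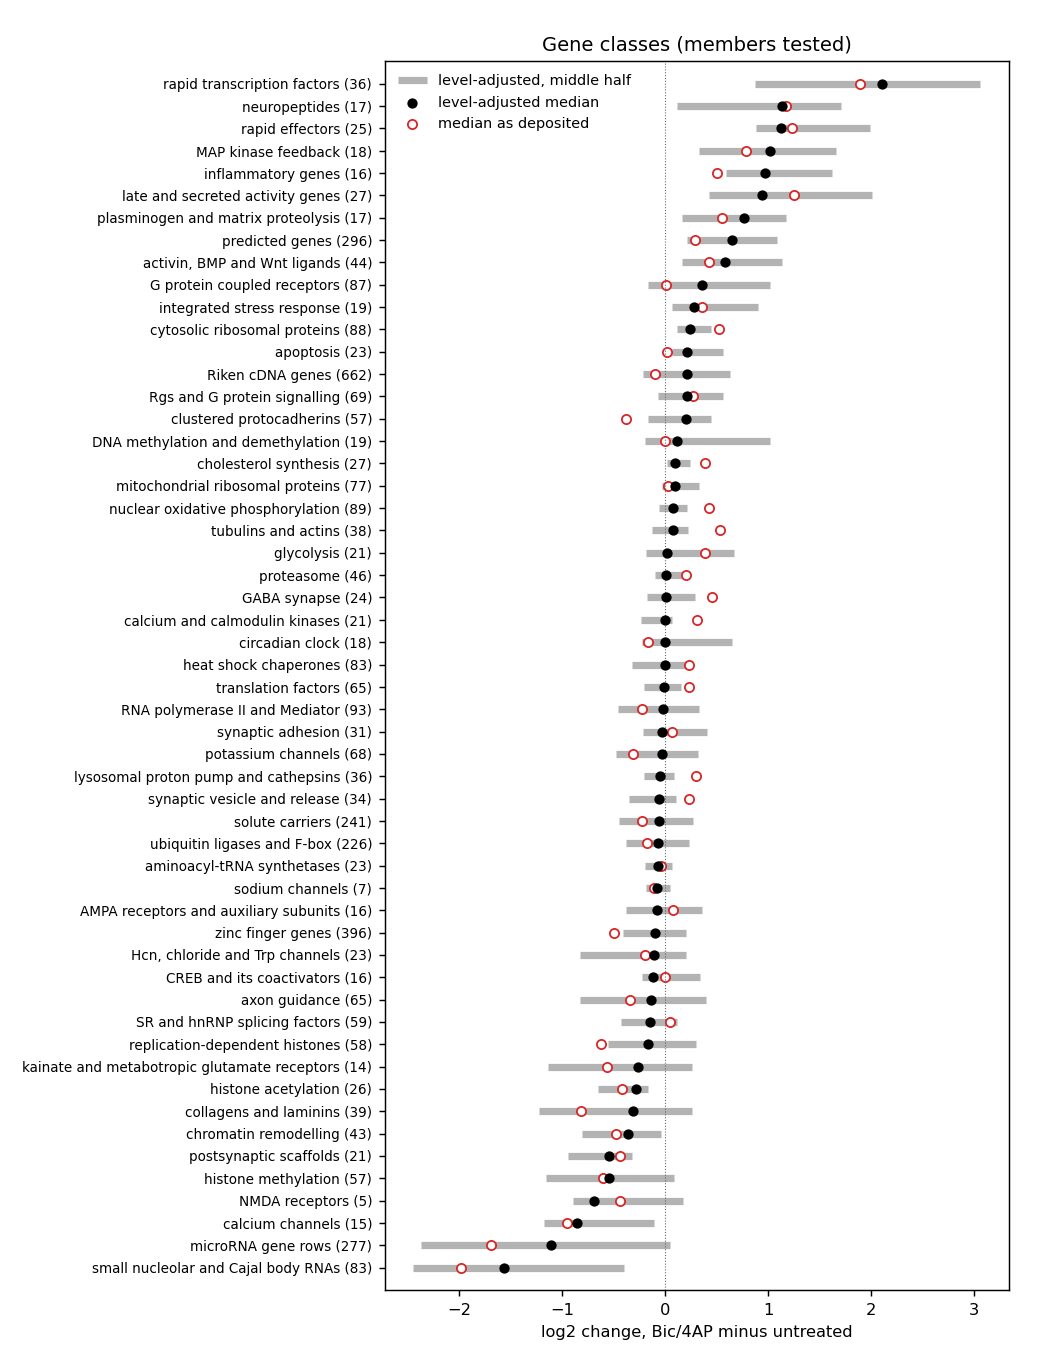
Median log2 change of each gene class as deposited (open red circles) and after level adjustment (black), with the interquartile range of its tested members after adjustment (grey bars); the number of members tested is in brackets. The rapid transcription factor genes have the highest level-adjusted median, 2.10, and small nucleolar and Cajal body RNAs the lowest of those drawn, -1.57, while the tubulin and actin genes go from 0.53 to 0.07; cell type markers are not drawn.

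Transcription factor genes of the rapid response led the rises. Of 36 members, 31 rose (86.1%, against 19.7% of all genes), 1 fell, and the median level-adjusted change was 2.10 against 0.00 over all genes. For 25 of them the rise was large. Fosb, an AP-1 subunit gene, had 1.27, 1.3 and 0.784 RPKM untreated against 102, 108 and 115 with Bic/4AP (log2 change 5.70, limma adjusted p = 1.74e-09), and its level-adjusted change of 5.97 was the largest rise among the 14386 genes. Maff, which encodes a small Maf protein that pairs with other basic leucine zipper factors, went from 0.986, 1.62 and 0.677 to 21.9, 25.2 and 29.7 RPKM (log2 change 3.68, level-adjusted 4.25). In neither gene did the groups come near each other. Egr2, a zinc finger factor, stood at 1.08, 1.05 and 0.823 RPKM and reached 13.6, 16.5 and 14.7 (log2 change 3.01, level-adjusted 3.65).

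The members differed widely in where they started. Fos, the partner of Jun in AP-1, was already at 8.39, 12.6 and 8.24 RPKM untreated and reached 180, 179 and 195 (level-adjusted 3.82), and Npas4, a factor that neurons express in response to calcium entry, went from 6.82, 9.7 and 8.98 to 117, 121 and 134 (3.57). Nr4a3, an orphan nuclear receptor gene, averaged 45.1 RPKM untreated against 114 with Bic/4AP, and its level-adjusted change was 0.82. Its relative Nr4a2 went from 10.7, 13.5 and 9.58 to 125, 128 and 134 RPKM (3.15), and Nr4a1 from 11.3, 13.4 and 12.9 to 75.5, 78.7 and 85.1 (2.44). In each of these genes the lowest Bic/4AP library was above the highest untreated library.

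The other Fos and Jun genes all rose, with level-adjusted changes of 3.04 for Junb, 2.36 for Fosl1, 1.49 for Fosl2, 1.37 for Jund and 0.70 for Jun. Fosl1 was at 0.108, 0.365 and 0 RPKM untreated, near the detection limit, and at 4.11, 3.87 and 2.93 with Bic/4AP. Among the Egr genes Egr4 went from 3.3, 5.01 and 3.48 RPKM to 40.7, 42 and 48.7 (3.46) and Egr1 from 9.07, 16.1 and 9.75 to 93.3, 97.9 and 112 (2.88). Atf3, a stress-responsive member of the CREB and ATF family, reached 32.9, 34.8 and 49.1 RPKM from 2.96, 4.97 and 2.38 (3.51). Klf4, a zinc finger factor of cell growth control, reached 7.55, 9.66 and 12.3 RPKM from 0.875, 1.55 and 0.63 (3.02). The member that fell was Nab2, which encodes a corepressor that binds Egr proteins, at 14.1, 11.7 and 15.3 RPKM untreated against 5.38, 6.89 and 5.48 with Bic/4AP (log2 change -1.09, level-adjusted -0.60, limma adjusted p = 5.66e-05).

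The remaining 4 members did not pass on both scales. Zfp36, whose protein speeds the decay of messenger RNAs, had 2.11, 3.07 and 2.17 RPKM untreated against 2.88, 2.59 and 2.74 with Bic/4AP (log2 change 0.13, adjusted p = 0.53). Klf10 averaged 12.8 and 14.6 RPKM (deposited log2 change 0.19) and Klf2 1.72 and 1.15 (deposited log2 change -0.35). Srf, the serum response factor gene, had 9.8, 12.1 and 10.6 RPKM and then 7.88, 7.82 and 8.5, which passed as lower on the deposited scale (-0.38, adjusted p = 0.0161) with a level-adjusted change of 0.09. Its direction turned with the scaling, and without Bic/4AP 1 or Bic/4AP 2 it no longer passed, at -0.36 each. Klf10 and Zfp36 passed as higher on the loess scale, at 0.50 and 0.63, and Klf10 also without untreated 2, at 0.34.

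Rapid effector genes, whose products act outside transcription itself, rose in 24 of 25 tested members (96%) and fell in 0, with a median level-adjusted change of 1.12. Trib3 was not tested because fewer than 3 of the 6 libraries reached 1 RPKM. Pim1, a serine/threonine kinase gene, was at 0.81, 1.54 and 0.398 RPKM and then at 16.6, 18.1 and 16.6 (level-adjusted 3.84). Ptgs2, which encodes the inducible cyclooxygenase, went from 6.29, 8.83 and 5.88 to 55.6, 54.9 and 91.7 RPKM (3.13), with Bic/4AP 3 standing above the other Bic/4AP libraries. Gadd45b, a stress-inducible gene with a part in active DNA demethylation, went from 5.33, 5.62 and 4.13 to 43.3, 43.5 and 45.3 RPKM (3.10). Arc, whose protein controls removal of AMPA receptors from synapses, went from 9.69, 8.36 and 11.7 to 54, 58.5 and 73.2 RPKM (2.53). Smaller rises came from Plk2, a kinase gene of homeostatic synaptic weakening (0.67), and Rheb, a GTPase gene upstream of mTOR (0.43). Per2, a clock gene that also counts here, averaged 17.5 and 15.5 RPKM and did not pass (log2 change -0.16, adjusted p = 0.174). Without untreated 2 it passed as lower on the deposited scale, at -0.24.

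**Figure D4:**
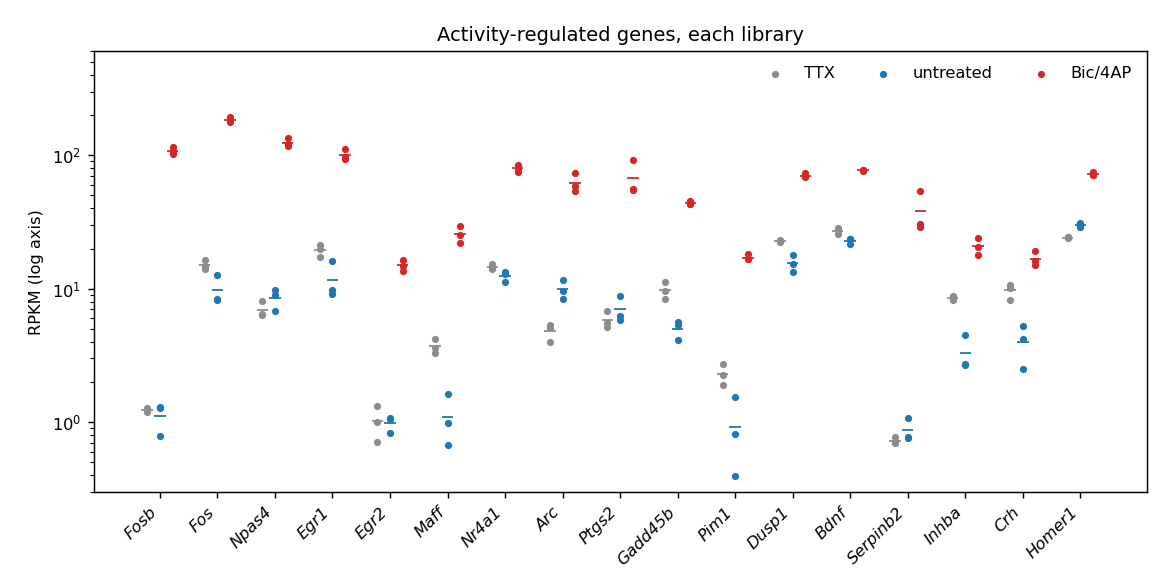
RPKM of 17 activity-regulated genes in each library of the TTX, untreated and Bic/4AP groups (points) with the group mean (dash), on a log axis. In all 17 genes the 3 Bic/4AP libraries lie above the 3 untreated ones, while the untreated levels range from about 1 RPKM for Fosb, Egr2, Maff, Pim1 and Serpinb2 to above 20 for Bdnf and Homer1.

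MAP kinase signalling is held in check by its own targets. Dual-specificity phosphatases remove the activating phosphates from MAP kinases, and Sprouty and Spred proteins act on the pathway above them. Of 18 such genes tested 14 rose (77.8%), 8 of them by a large change, and 0 fell, with a median level-adjusted change of 1.02. Dusp1, which encodes a nuclear phosphatase, had 15.4, 18 and 13.4 RPKM untreated against 69.5, 73.5 and 68.4 with Bic/4AP (1.96). Dusp6, for a phosphatase selective for ERK, averaged 19.1 and 58.6 RPKM (1.42). Spry4 went from 6.73, 11 and 5.81 to 29, 29 and 30.3 RPKM (2.04), and its level with TTX was 21.3 RPKM, nearer to Bic/4AP than to untreated. Dusp5, another ERK phosphatase gene, rose less, from 7 to 10.1 RPKM on average (0.98).

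The class of late and secreted activity genes comes next in the text, not in time. All Bic/4AP RNA was taken at 3 h. Of 27 members 21 rose (77.8%), 12 with a large change, and 1 fell. The list also holds Baz1a, counted again among the remodelling genes, and Fndc9. Its members were chosen with earlier results of these data known, so this share is not independent of them. Serpinb2, an inhibitor of plasminogen activators, went from 0.78, 1.08 and 0.766 RPKM to 30.7, 29.1 and 54.4 (log2 change 4.33, level-adjusted 4.86, limma adjusted p = 1.48e-07). The plasminogen activator genes themselves were also higher: Plat, for tissue plasminogen activator, went from 14.3, 15.3 and 15.1 to 29.8, 35.7 and 36.9 RPKM (1.21). Plau, for urokinase, went from 0.53, 1.11 and 0.744 to 1.79, 2.6 and 1.97 (1.17). Of 17 genes of plasminogen activation and matrix proteolysis 11 rose and 0 fell.

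Bdnf, the neurotrophin gene, was even across libraries, with 23.5, 23.7 and 21.6 RPKM untreated against 77.4, 76.7 and 78.2 with Bic/4AP (deposited log2 change 1.71). Nptx2, a secreted pentraxin that clusters AMPA receptors, reached 48.6, 48.6 and 53 RPKM from 4.66, 5.74 and 4.03 (3.30). Pcsk1, the prohormone convertase gene that processes peptide precursors, reached 67.4, 69.4 and 81.3 RPKM from 16.2, 20.4 and 13.3 (1.90). Acan, for the core protein of perineuronal nets, reached 10.4, 11.3 and 13.8 RPKM from 3.33, 5.26 and 2.01 (2.12). The abundant members Rgs4 and Scg2 had deposited log2 changes of 1.26 and 1.24 and level-adjusted changes of 0.71 and 0.69. Crebrf, a regulator of the CREB3 branch of the stress response, was the member that fell, from 9.76, 11.9 and 10.9 to 3.8, 3.45 and 3.28 RPKM (-0.80). Nptx1, the constitutive relative of Nptx2, averaged 34.2 and 36.2 RPKM and did not pass (log2 change 0.08, adjusted p = 0.429).

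Neuropeptide genes rose in 12 of 17 tested members (70.6%) and fell in 1, with a median level-adjusted change of 1.13. Pdyn, Gal and Trh were not tested because fewer than 3 of the 6 libraries reached 1 RPKM. Crh, for corticotropin-releasing hormone, went from 4.17, 5.24 and 2.51 to 16.2, 15 and 19.2 RPKM (2.38) and Adcyap1, for the peptide PACAP, from 16.7, 21.6 and 15.3 to 72.4, 69.6 and 71.5 (1.75). Penk, the enkephalin precursor gene, went from 10.4, 14.3 and 9.87 to 28.8, 29.3 and 35.4 RPKM (1.50). Its TTX level was 25.4 RPKM, and several others of the list were high with TTX too: Crh at 9.73, Vip at 26.1 and Tac2 at 14.4, against Bic/4AP means of 16.8, 33.9 and 16.9. Sst and Npy, at 74.5 and 52.8 RPKM untreated, rose less after adjustment, by 0.35 and 0.32, and Sst did not pass on the loess scale without untreated 1, untreated 3 or Bic/4AP 2 (limma adjusted p = 0.0639, 0.147 and 0.0514). Chgb, a granin gene of secretory granules, fell from 34.2, 28.6 and 36.3 to 19.7, 18.8 and 18.7 RPKM (-0.76).

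Start sites of activity genes were searched for 3 motifs of factors named above, on both strands from 250 bases before to 50 after each start (RefSeq, GRCm38.p6, the assembly behind mm10). The cAMP response element of CREB was TGACGTCA, the AP-1 element TGACTCA, and the serum response element was taken by its name, CArG. The first 2 do not share a full match. The stretches below are shown because they place a full element before the start of a gene with a large rise; capitals mark the element, and each is written along the gene's strand. Which genes to print was decided after the matches had been seen.
Maff, chr15:79347480-79347509, plus strand: ggctggggcggTGACGTCActgcatgactg
Dusp1, chr17:26508597-26508626, minus strand: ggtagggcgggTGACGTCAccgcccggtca
Btg2, chr1:134079303-134079332, minus strand: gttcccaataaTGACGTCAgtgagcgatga
Pcsk1, chr13:75089768-75089797, plus strand: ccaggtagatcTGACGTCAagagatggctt
Cartpt, chr13:99900777-99900806, minus strand: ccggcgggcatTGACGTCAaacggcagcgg
Egr2, chr10:67537787-67537816, plus strand: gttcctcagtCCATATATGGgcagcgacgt
Nts, chr10:102490608-102490636, minus strand: aactctttctgTGAGTCAgaaatcctgag

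The CREB element lies 29 bases before a start of Maff, 143 before Dusp1, 166 before Btg2 (an antiproliferative cofactor gene), 78 before Pcsk1 and 112 before Cartpt (a satiety peptide gene), counted from the 5' end of the element. The Egr2 stretch holds a serum response element 72 bases before 1 of its annotated starts, and the Nts stretch, from the neurotensin gene, holds the AP-1 element as read on the other strand. Over all 14084 starts of 11018 matched genes 2.99% held the CREB element, 3.56% the AP-1 element and 1.31% the serum response element. In starts of genes with a large rise these shares were 5.1%, 7.14% and 2.3% (20, 28 and 9 of 392 starts), and in starts of genes with a large fall 2.26%, 3.73% and 1.17%. The serum response element was at 6 of 36 starts of the rapid transcription factor genes. Most of these starts were of Egr2, whose starts at chr10 positions 67537869, 67537870 and 67537930 share the same element. The CREB element was at 3 of 17 starts of the MAP kinase feedback genes and 3 of 15 starts of the neuropeptide genes. Other classes had few matches or none: the AP-1 element was at 1 of 36 starts of the rapid transcription factor genes, 0 of 25 of the rapid effector genes and 0 of 17 of the MAP kinase feedback genes, and the serum response element at 0 of 26 starts of the late and secreted genes and 0 of 15 of the neuropeptide genes. Starts of 1 gene often overlap and share a match, so these shares are descriptions. In the part of this window before each start, no full element was found at Fos, Fosb, Npas4 or Bdnf. Elements after the start are not given for single genes here. The absence says only that these letters are not in the part before the start.

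H3K27ac, a histone mark of active promoters and enhancers, was profiled in separate samples with and without Bic/4AP, 2 of each, as peak lists called per sample. The lists differ in size, with 4846 and 49701 peaks untreated and 7721 and 55035 with Bic/4AP, so shares are read against all genes of the same list. A peak lay within 1 kb of a start for 6.29% and 21.4% of the genes with a large rise in the untreated lists 1 and 2, against 15.2% and 44.6% of all matched genes. In the Bic/4AP lists 1 and 2 the shares were 23% and 45.3%, against 32.9% and 57.8%. Genes with a large rise were thus below the share of all genes in each of the 4 lists. Genes with a large fall were at 9.4% and 35.6% untreated and at 19.8% and 41.8% with Bic/4AP. Many genes with a large rise are at low levels: among those in the upper 5 deciles by level, 131 in all, the shares were 12.2% and 44.3% untreated and 44.3% and 75.6% with Bic/4AP, and those of genes not called on both scales 23.5%, 61.6%, 48.6% and 78%.

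**Figure D5:**
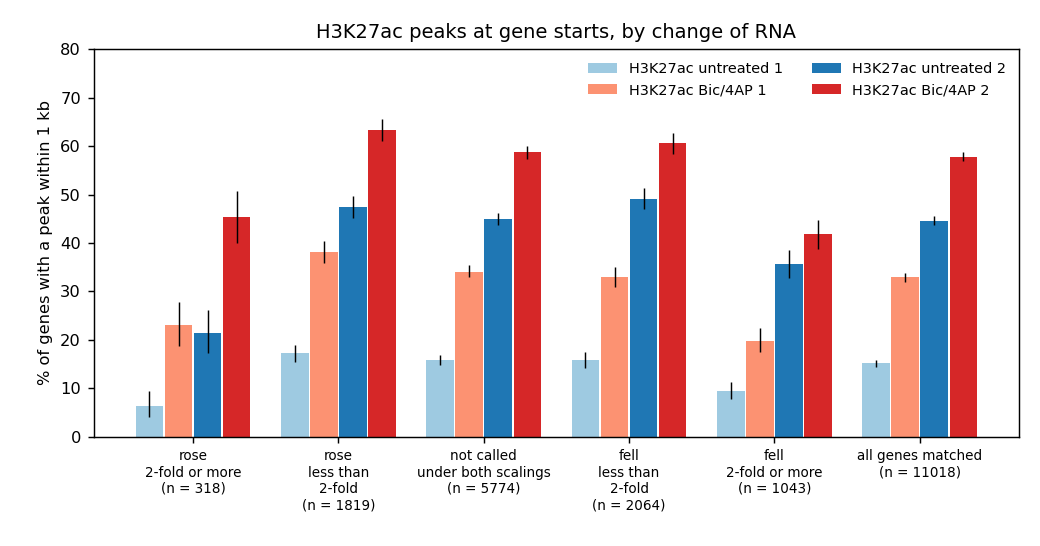
Percent of genes with an H3K27ac peak within 1 kb of an annotated start, by RNA change, in each of the 4 peak lists; lines are 95% Wilson intervals and cover counting error over genes only. Bars of the genes with a large rise go from 21.4% to 45.3% between untreated 2 and Bic/4AP 2, and those of genes with a large fall from 35.6% to 41.8%.

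In the rapid classes together, 48 genes had a matched start. A peak lay at 10 and 25 of them in the untreated lists, against 15.2% and 44.6% of all matched genes. In the Bic/4AP lists it lay at 24 and 40, against 32.9% and 57.8%. Fos had a peak in both Bic/4AP lists and in neither untreated list, as did Errfi1, an inhibitor gene of the EGF receptor, Adcyap1 and Sik2. The pattern was not limited to rises, since Eif2ak4, Psmd4, Syne1 and Mrps9, which fell, had it too. Its share over all matched genes is not given here, so these genes are not shown to be unusual. Fosb, Maff, Pim1 and Egr2 had one in Bic/4AP list 2 only. Dusp1, Homer1 and Bdnf carried a peak in all 4 lists, Npas4 in the second list of each treatment, and Serpinb2, Ptgs2 and Ptger4 in none. Ptger4 encodes a receptor for prostaglandin E2, a product of the Ptgs2 pathway, and its RNA went from 0.373, 0.603 and 0.524 RPKM to 11.5, 11.9 and 14.1 (level-adjusted 3.75). With 2 samples per treatment and lists of such different size, no test of single sites was made.

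Calcium signals reach the nucleus through CREB and its coactivators. Of 16 genes of CREB, its relatives and coactivators, the kinases Sik2 and Sik3 and the Mef2 factors 4 rose and 5 fell, or 3 falls without untreated 3 or Bic/4AP 1, with a median level-adjusted change of -0.12. The coactivators of the Crtc family, which carry calcium and cAMP signals to CREB, were lower: Crtc2 went from 16, 14.6 and 18 to 4.54, 4.72 and 5.7 RPKM (level-adjusted -1.05) and Crtc1 from 26, 26.5 and 27.1 to 13.9, 15.7 and 12.2 (-0.77). Crebbp, the acetyltransferase CBP, went from 32.1, 31.9 and 34.7 to 21.8, 22.4 and 22.5 (-0.60). The kinase gene Sik2, whose product holds Crtc proteins in the cytoplasm, rose from 14.5, 17.7 and 15.6 to 34.9, 36.1 and 39 RPKM (1.18), and Sik1 rose too (1.70). Mef2c, a calcium-regulated factor gene of neuronal survival, was at 51.9, 49 and 48.6 and then 91.9, 89.1 and 88.1 RPKM (0.34).

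Of 21 genes for calmodulin, calmodulin kinases and calcineurin 4 rose and 3 fell, or 5 falls without untreated 2, with a level-adjusted median of 0.00. Camk2n2, an inhibitor of CaMKII, rose from 25.3, 29.2 and 21.6 to 55.2, 60.2 and 53.2 RPKM (0.87), and Camkk1, a kinase that activates other calmodulin kinases, fell from 45.5, 37.1 and 50.4 to 8.45, 8.78 and 7.95 (-2.16). Camk2a, the main CaMKII gene of forebrain neurons, had 96.2, 73.1 and 97.4 RPKM untreated against 86.7, 87.5 and 91.4 with Bic/4AP. Its groups overlapped on the deposited scale (log2 change 0.01, adjusted p = 0.962), while on the loess scale it passed as 0.59 lower, so its direction depends on the scaling. Among 18 clock genes 4 rose and 4 fell (22.2% each). Per1 went from 19.2, 21.7 and 21.9 to 35.7, 39.4 and 36 RPKM (0.71), whereas Per3 went from 18.9, 17 and 24.4 to 2.12, 3.06 and 2.82 (-1.99) and Dbp from 7.17, 7.13 and 9.14 to 1.14, 1.44 and 0.991 (-1.42).

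Glutamate receptor genes went both ways. AMPA receptors carry fast excitation, and their surface number is set with the help of auxiliary subunits. Of 16 genes of this group 6 rose and 3 fell. The auxiliary subunit genes Cacng4, Cacng5 and Cacng2 rose (level-adjusted 1.15, 1.06 and 0.66). Cacng4 was uneven, with 9.2, 17.4 and 7.61 RPKM untreated against 21.8, 24.4 and 19.2. Cacng8 fell from 34.6, 29.3 and 42.3 to 7.53, 7.26 and 7.01 RPKM (-1.96). Of the pore-forming subunits, Gria3 fell by 0.42 after adjustment. Gria1 had 80.1, 63.6 and 82 RPKM untreated against 62, 65.7 and 68.4 with Bic/4AP, with overlapping groups (log2 change -0.19, adjusted p = 0.0887), but passed as lower on the loess scale (-0.68) and without untreated 2 (-0.31). Gria2 had 67, 55.6 and 69.3 RPKM and then 65.1, 66.3 and 70.2 (log2 change 0.08, adjusted p = 0.432), and on the loess scale it passed as 0.38 lower.

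NMDA receptors admit the calcium that starts the activity program. Of 5 subunit genes tested 0 rose, or 1 without untreated 2 or Bic/4AP 3, and 3 fell: Grin2a from 54.8, 45.4 and 59.8 to 23.6, 25.9 and 26.1 RPKM (-1.27), the obligatory subunit gene Grin1 from 49.1, 39.8 and 51.7 to 27.4, 29.3 and 29.1 (-0.90), and Grin2b from 47.3, 42.9 and 49.3 to 33.2, 36.2 and 34.4 (-0.69). Grin2a was at 25.4 RPKM with TTX as well. Grin3a, for a subunit that lowers calcium entry, had 8.88, 12.8 and 7.88 RPKM and then 14.2, 12.8 and 11.4; it passed as higher on the loess scale (0.76) and, on the deposited scale, without untreated 2 or Bic/4AP 3 (0.55 and 0.44). Of 14 kainate and metabotropic receptor genes 2 rose and 6 fell.

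Postsynaptic scaffold genes fell in 15 of 21 members (71.4%, against 28.5% of all genes) and rose in 3, with a level-adjusted median of -0.55, and the count of falls stayed at 15 with any 1 library left out. They summed to 760 to 898 RPKM untreated, 651 to 666 with Bic/4AP and 682 to 707 with TTX. Dlgap2 went from 39.3, 34.2 and 46.5 to 13.2, 15.4 and 17.6 RPKM (-1.31) and Shank1 from 50.6, 43.9 and 56.7 to 31.4, 33.9 and 27.8 (-0.95). Homer1, whose short form is a known activity-regulated transcript, was the strongest of the 3 rises, from 29.2, 31.1 and 29.8 to 70.7, 70.6 and 75 RPKM (0.88); gene-level values do not separate its forms. Dlg4, which encodes PSD-95, had 58.4, 51.6 and 61.7 RPKM and then 57.6, 58.8 and 58.2 (log2 change 0.03, adjusted p = 0.743), and was 0.38 lower on the loess scale, where it passed.

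Of 31 synaptic adhesion genes 10 rose and 5 fell, or 3 falls without untreated 1, Bic/4AP 1 or Bic/4AP 3. Slitrk2, Cbln2 and Lrrtm1, all genes of synapse-organizing proteins, rose by 1.07, 0.90 and 0.85 after adjustment, with Slitrk2 going from 14.8, 18.7 and 14.3 to 31.1, 31.7 and 36 RPKM. Ptprs, a presynaptic receptor phosphatase gene, fell from 61.4, 49.2 and 64.9 to 37.1, 41.7 and 36 RPKM (-0.95). Of 34 genes of synaptic vesicles and release 6 rose and 6 fell, or 3 rises without untreated 1 or untreated 3. Syt4, a vesicle synaptotagmin gene known to be activity-regulated, went from 87.2, 73.8 and 78.8 to 183, 184 and 191 RPKM (0.66). The active zone genes Unc13a and Rims1 fell, Unc13a from 64.5, 50.3 and 69 to 27.3, 27.8 and 28.9 RPKM (deposited log2 change -1.09) and Rims1 from 45, 38.5 and 46.4 to 21.9, 21.6 and 22.7 (-1.04).

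GABA synapse genes show how much the level matters. Their deposited median change was 0.45 and their level-adjusted median 0.01, and 8 of 24 rose and 5 fell, or 5 rises without untreated 1. Gad1, for a GABA-synthesizing enzyme, went from 79.5, 65.7 and 71.1 to 116, 117 and 123 RPKM, a log2 change of 0.72 that came to 0.17 after adjustment; without untreated 1 or untreated 3 it did not pass on the loess scale (limma adjusted p = 0.059 and 0.125). Slc32a1, the vesicular GABA transporter gene, went from 15.1, 18.9 and 10.2 to 30.6, 31.6 and 34 RPKM (1.19), and its TTX level was 36.6. The chloride transporter genes Slc12a5 (KCC2, which keeps GABA inhibitory) and Slc12a2 (NKCC1) both fell, by 0.92 and 0.80 after adjustment. Slc12a5 had 42.4, 37.6 and 46.7 RPKM untreated against 22.9, 23.7 and 23.7 with Bic/4AP.

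Voltage-gated calcium channel genes fell in 11 of 15 tested members (73.3%) and rose in 1, with a level-adjusted median of -0.86, and 11 fell with any 1 library left out. The falls covered the pore genes of the T, L, P/Q, N and R types. Cacna1d, an L-type gene, went from 18.5, 16.5 and 21.3 to 5.21, 5.5 and 4.71 RPKM (-1.24). Cacna1a, the P/Q-type gene of presynaptic release, went from 47.7, 38.6 and 53.5 to 18.4, 19.4 and 20.2 RPKM (-1.31). Cacnb4, an auxiliary subunit gene, rose from 38.1, 39.6 and 38.3 to 53.2, 50.9 and 54.2 (0.12), but did not pass on the loess scale without untreated 1 or untreated 3 (limma adjusted p = 0.219 and 0.0771). The class then had 0 rises, and without Bic/4AP 3 it had 2. Cacna1d was at 8.09 and Cacna1a at 23.1 RPKM with TTX, below the untreated levels in both.

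Potassium channel genes, the family that 4-aminopyridine blocks in part, rose in 11 (16.2%) and fell in 26 (38.2%) of 68 members. Kcnf1, a modulatory subunit gene, rose from 3.26, 4.44 and 2.55 to 11.4, 11.9 and 8.61 RPKM (2.03). Kcnj9, for a G protein-gated inward rectifier, fell from 19.9, 17.2 and 24.3 to 2.5, 1.87 and 1.62 (-2.29). Of 7 sodium channel genes 2 fell, or 1 when any library but Bic/4AP 2 was left out, and 0 rose: Scn8a went from 39.6, 34.9 and 43.1 to 19.8, 21.1 and 21.3 RPKM (-0.96).

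Among genes of histone methylation and chromatin remodelling, falls outnumbered rises. Of 57 genes of histone methylation 33 fell (57.9%), 20 by a large change, and 4 rose, with a level-adjusted median of -0.55. Kmt2d, a methyltransferase gene for enhancer H3K4, went from 32.4, 27.6 and 37.9 to 7.19, 8.23 and 7.04 RPKM (-1.81). The demethylase gene Kdm7a rose from 15.1, 16.8 and 16.5 to 39.2, 38 and 45.2 RPKM (1.26). Of 43 remodelling genes 26 fell and 5 rose. Baz1a, of the ACF remodelling complex, was among the largest rises of all, from 0.287, 0.681 and 0.367 to 10.9, 11.7 and 11.9 RPKM (3.69), whereas its relative Baz1b fell from 36.5, 32.3 and 41 to 8.55, 9.28 and 9.78 (-1.77). Arid5b, a cofactor of demethylases, rose from 10.4, 12.9 and 10.3 to 28.3, 29.6 and 31.6 (1.46).

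Of 26 histone acetylation genes 14 fell and 1 rose, or 2 rises without untreated 2, at a level-adjusted median of -0.29. Kat6b, an acetyltransferase gene, averaged 22.8 RPKM untreated against 9.71 with Bic/4AP (-0.93), and Hdac10 went from 9.78, 9.27 and 11.2 to 1.14, 1.69 and 1.62 (-1.51). DNA methylation and demethylation genes, which write, read and remove the mark on cytosines, rose in 8 and fell in 4 of 19 members. Besides Gadd45b, Gadd45a (1.39) and Tet3 (0.68) rose, the latter from 21.7, 23.5 and 23.5 to 37.7, 41.2 and 41 RPKM. The methyl-binding genes Mbd1 and Mbd3 fell by 0.67 and 0.53. Dnmt3a, with 38.1, 36.7 and 38.1 RPKM and then 36.4, 36.3 and 37.3, did not pass as deposited (adjusted p = 0.582) and passed as 0.24 lower on the loess scale. Zinc finger genes, the largest transcription factor family, rose in 32 (8.08%) and fell in 136 (34.3%) of 396, at a level-adjusted median of -0.10 against -0.50 as deposited. Zfp184 went from 3.68, 5.3 and 2.51 to 17, 17.4 and 21.6 RPKM (2.56) and Zfp692 from 31.5, 25.4 and 35.3 to 1.81, 2.79 and 2.37 (-2.77).

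Cytosolic ribosomal protein genes rose in 58 of 88 members (65.9%) and fell in 1, and 48 to 61 rose when 1 library was left out. Their median change was 0.52 as deposited and 0.24 after adjustment, so the rises were small: Rpl31 went from 12.2, 13.5 and 12.5 to 19.8, 20.5 and 22 RPKM (0.83), and Rpl36 was the member that fell, from 17.4, 19 and 20.1 to 13.6, 12.8 and 11.3 (-0.36). Without untreated 3, Bic/4AP 2 or Bic/4AP 3 Rpl36 did not pass on the loess scale (limma adjusted p = 0.0922, 0.0502 and 0.0597), which left 0 falls. Near-identical pseudogene copies make values of single ribosomal protein genes uncertain. The listed cytosolic ribosomal protein genes summed to 2735 to 3074 RPKM untreated, 3915 to 4242 with Bic/4AP and 3263 to 3608 with TTX. Mitochondrial ribosomal protein genes rose in 14 and fell in 8 of 77, or 7 rises without untreated 1 and 6 without untreated 3. The falls numbered 2 without untreated 1, 5 without untreated 3 and 3 without Bic/4AP 1, and the medians were 0.03 as deposited and 0.09 adjusted. Nuclear genes of oxidative phosphorylation rose in 26 and fell in 5 of 89, with medians of 0.42 as deposited and 0.07 adjusted. Cox8b, a muscle form of a cytochrome oxidase subunit, was listed at 0 in all Bic/4AP libraries and at 7.33, 6.63 and 11.5 RPKM untreated.

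Of 21 genes of glycolysis and its transporters 10 rose and 2 fell. Slc2a1, the glucose transporter gene, went from 9.25, 10.3 and 10.2 to 24.8, 24.9 and 28 RPKM (1.46) and Slc16a1, for a lactate transporter, from 22.3, 24.2 and 21.7 to 65.6, 62.6 and 60.5 (1.17). Pfkl, a phosphofructokinase gene, fell from 26, 22 and 29.7 to 4.82, 5.1 and 5.58 RPKM (-1.79). Of 27 cholesterol synthesis genes 8 rose, or 5 without untreated 1 and 3 without untreated 3, and 0 fell, or 1 without Bic/4AP 3. Ebp, a sterol isomerase gene, went from 10.1, 14 and 9.61 to 26.1, 25.8 and 24.2 RPKM (1.28).

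Of 19 genes of the integrated stress response 9 rose and 1 fell. Eif2ak3, which encodes the endoplasmic reticulum kinase PERK, went from 9.08, 11.1 and 7.71 to 16.6, 17.1 and 13.7 RPKM (1.03), while Eif2ak4, for the amino acid sensor GCN2, went from 17.9, 16.2 and 19.4 to 4.59, 5.31 and 6.41 (-1.11). Of 83 heat shock and chaperone genes 17 rose (20.5%) and 14 fell (16.9%). Dnajb1, an Hsp70 cochaperone, rose by 1.01 after adjustment, and Hsf1, the master factor of the heat shock response, fell from 26.1, 24.3 and 27.5 to 7.78, 7.34 and 6.85 RPKM (-1.43). Of 23 apoptosis genes 9 rose and 4 fell. The pro-apoptotic gene Bcl2l11 (BIM) went from 2.04, 2.96 and 2.39 to 7.46, 7.75 and 5.17 RPKM (1.81), and Bbc3 (PUMA) from 2.87, 2.44 and 3.44 to 0.783, 0.772 and 0.35 (-0.91), with 7.11 RPKM for Bbc3 in TTX.

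Of 93 genes of RNA polymerase II, its general factors and Mediator 18 rose (19.4%) and 31 fell (33.3%). Of 59 splicing factor genes of the SR and hnRNP families 9 rose (15.3%) and 15 fell (25.4%). These shares lie near those of all genes, 19.7% and 28.5%. Taf7, a subunit gene of TFIID, went from 9.78, 10.4 and 8.23 to 16.5, 16.9 and 20.2 RPKM (1.16), and Hnrnpm from 46.8, 35.4 and 48.6 to 17.8, 18.8 and 18.6 (-1.27). Ubiquitin ligase genes rose in 34 (15%) and fell in 64 (28.3%) of 226, against 19.7% and 28.5% of all genes, or 21 rises without untreated 1. Rnf217 was even, with 16.6, 18.2 and 18.2 RPKM and then 59.2, 59.3 and 59.3 (1.54). Of 46 proteasome genes 6 rose and 5 fell, and the largest rise was Psmb9, an immunoproteasome subunit gene, from 0.661, 1.49 and 1.08 to 9.05, 9.73 and 4.29 RPKM (2.58).

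Ligands of the activin, BMP and Wnt families and their antagonists rose in 23 and fell in 6 of 44 members. Inhba, the activin A subunit gene, went from 2.67, 4.52 and 2.73 to 20.4, 18 and 24 RPKM (2.86), and Bmp2 from 1.05, 1.27 and 1.27 to 6.38, 5.44 and 6.46 (2.30). The BMP antagonist gene Chrd fell from 40.5, 31.5 and 49.4 to 1.41, 2.41 and 1.21 RPKM (-3.49). Fst, for the activin antagonist follistatin, also rose, from 7.19 to 21.9 RPKM on average (1.80). G protein signalling genes of the Rgs, adenylyl cyclase and G protein subunit families rose in 24 and fell in 11 of 69. Rgs16 went from 4.33, 7.73 and 3.21 to 32.2, 38.6 and 35.7 RPKM (2.95), and the cyclase gene Adcy9 from 25.2, 23.5 and 28.5 to 6.65, 7.23 and 7.11 (-1.45).

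Of 87 genes of G protein-coupled receptors tested 30 rose and 18 fell. Gpr3, a receptor that raises cAMP without a ligand, went from 4.39, 6.78 and 3.41 to 38.2, 35.1 and 39.8 RPKM (3.02). Htr2a, the serotonin 2A receptor gene, went from 3.7, 6.01 and 3.46 to 17.4, 14.5 and 17.8 (2.24). Inflammatory genes rose in 8 of 16 and fell in 0, from low levels: Il6 had 0.327, 1.11 and 0.641 RPKM and then 3.66, 3.21 and 2.54 (1.68), and the chemokine gene Ccl2 5.06, 9.33 and 6.92 and then 13.4, 15.1 and 12.3 (1.29). Axon guidance genes rose in 14 and fell in 28 of 65. Sema3a rose from 4.38, 6.55 and 4.16 to 10.1, 9.06 and 8.73 RPKM (1.29). Robo3, a guidance receptor gene of crossing axons, fell from 21.3, 18.2 and 26.3 to 0.187, 0.0461 and 0.195 (-3.65). Of 39 collagen and laminin genes 20 fell, 13 by a large change, and 4 rose. All listed genes of this class summed to 294 to 353 RPKM untreated, 148 to 151 with Bic/4AP and 160 to 192 with TTX. Col9a3 went from 18.5, 14.9 and 23.1 to 0.327, 0.0646 and 0.546 RPKM (-3.26).

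Leaving out short RNA genes, the 10 largest falls under the naming rule were Kcnj13, Tnfrsf25, Crocc, Aifm3, Lrrc45, Kcne2, Ptgds, Kl, Igf2 and Clic6, with level-adjusted changes from -4.60 to -3.68. At least Kcnj13, Tnfrsf25, Crocc and Aifm3 were below 1 RPKM in each Bic/4AP library, so they entered through the untreated group alone. Kcnj13, an inward rectifier gene of choroid plexus and other epithelia, had 49.7, 37.2 and 56.4 RPKM untreated against 0.655, 0.162 and 0.342 with Bic/4AP. Igf2, an insulin-like growth factor gene of choroid plexus and meninges, had 48.8, 35.2 and 53.9 and then 1.53, 1.59 and 1.18. All 10 were lowest in untreated 2 among the untreated libraries, and with TTX they averaged between 0.0404 RPKM (Kcnj13) and 8.3 (Lrrc45), below each untreated library. Of 20 choroid plexus markers 19 fell, each by a large change, at a level-adjusted median of -3.20, and the count stayed at 19 with any 1 library left out. Ttr, for the carrier transthyretin, had 197, 131 and 198 RPKM untreated, 16.5, 18.2 and 21.3 with Bic/4AP and a mean of 0.393 with TTX. Enpp2, for autotaxin, had 126, 82.4 and 126 RPKM untreated against 8.86, 8.32 and 9.18 with Bic/4AP. Lmx1a, a developmental factor of the same tissue, did not pass, at averages of 3.29 and 2.45 RPKM. None of the markers was at 0 in all 6 libraries.

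Markers of the other cell types moved less. Neuron markers summed to 891 to 1041 RPKM untreated against 1393 to 1412 with Bic/4AP, yet 3 of 14 rose and 1 fell, at a level-adjusted median of -0.01. Astrocyte markers rose in 7 of 12 and fell in 0 and summed to 162 to 177 RPKM untreated, 229 to 267 with Bic/4AP and 202 to 231 with TTX. Gja1, the gap junction gene of astrocytes, went from 5.72, 8.04 and 6.79 to 12.3, 12.1 and 14.4 RPKM (1.31). Not all members went this way. Aldh1l1 had a deposited log2 change of -0.75 (-0.09) and did not pass on both scales. Gjb6, not tested, went from 0.727, 0.639 and 1.03 to 0.402, 0.0991 and 0.21 RPKM. Aqp4 rose, but did not pass on the deposited scale without untreated 1 or Bic/4AP 3 (limma adjusted p = 0.0794 and 0.0753). Progenitor markers rose in 3 of 6 and fell in 0, with sums of 135 to 150 and 247 to 282. Oligodendrocyte lineage markers rose in 1 and fell in 4 of 8, or 2 falls without untreated 1, microglia markers rose in 2 of 7 and vascular markers in 3 of 9. Left untested because of low values were Pecam1, Cldn5, Cdh5 and Tek (vascular), Sox10, Cspg4, Mog and Gpr17 (oligodendrocyte) and Gjb6 (astrocyte). The same held for Cx3cr1, Itgam, P2ry12, Tmem119 and Trem2 (microglia) and Mki67, Eomes, Hes5, Ccnb1 and Cdk1 (progenitor). Pecam1 went from 0.483, 1.15 and 1.11 to 0.201, 0.132 and 0.0697 RPKM, and Trem2 from 0.155, 0.35 and 0.456 to 1.16, 2.09 and 0.603. Sox10, Gpr17 and Cldn5 were at 0 in each Bic/4AP library. The part of these cell types in the changes of other genes was not tested.

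Short non-coding genes also had more falls than rises. Small nucleolar and Cajal body RNA genes fell in 51 of 83 tested members, 48 of them by a large change, and rose in 2, or 1 without untreated 1 and 5 without Bic/4AP 2, and microRNA gene entries fell in 147 of 277 and rose in 26. Scarna10 had 247, 165 and 260 RPKM untreated against 9.34, 18.4 and 3.25 with Bic/4AP, and 1.25 with TTX. Genes of this kind are short and often lie within a host gene, so their reads can belong to either. Genes with a predicted-gene (Gm) name rose in 118 of 296 and fell in 35, at a level-adjusted median of 0.65. The sources used here do not state whether counting used strand, and reads of antisense or overlapping genes cannot then be told apart. Replication-dependent histone genes, whose messages also lack a poly(A) tail, rose in 2 and fell in 10 of 58, or 4 falls without untreated 1 or untreated 3. The class had 0 rises without untreated 1 or Bic/4AP 2 and 1 without untreated 2, untreated 3 or Bic/4AP 3. Clustered protocadherin genes, which share exons, rose in 2 and fell in 9 of 57, or 3 falls without untreated 1 or untreated 3 and 6 rises without untreated 2.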

How the data were processed

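The deposited RNA values are RPKM per gene, 1 file per library; per the submitters' processing notes the genome was mm10 and the tools, listed without roles, included MACS 1.4.1, Bowtie2 2.2.4 with TopHat, and SAMtools 0.1.19. Per the labels' protocols, poly(A) RNA went into a directional library kit. The sources used here state neither strand use in counting nor duplicate removal. The deposited peak lists carry a score per peak from the authors' caller, which was not used beyond the peaks' positions. Of 24062 lines, 24058 names were used. Reads were recovered from the steps of RPKM between low short genes, where 85.7% to 89.1% of values came out whole within 0.1 read, and no count test was run.

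Values were taken as log2(RPKM + 1) and tested with limma 3.58.1 in R 4.3.3 (trended variance, Benjamini-Hochberg adjustment, threshold 0.05), on the deposited scale and after cyclic loess; Python 3.11.15, pandas 2.3.3, numpy 2.4.6, scipy 1.17.1 and matplotlib 3.10.9 did the rest. The procedure was tested on simulated data for this comparison (14386 genes, 200 changed): 77% of genes changed by 1 on the log2 scale and 41% of those changed by 0.5 were called, 6.35% of the calls were false, and the bound of 70% that the first share had to pass was set after a first run. A gene that did not pass may thus have changed. The simulation had no trend with level, no difference in depth and no shift of a single library. It changed far fewer genes than were called here. Its shares therefore do not give the false share of the calls in these data. Samples were grouped by their labels. Promoter windows came from RefSeq tables (GRCm38.p6), matched by symbol.

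Named genes are, among genes called on both scales with non-overlapping groups and a group mean of 5 RPKM or more, the 10 with the largest level-adjusted change each way, short RNA and unnamed genes left out; up to 3 per class and direction; Fos, Arc, Npas4, Bdnf, Egr1 and Nr4a1; and the 5 most abundant per group. Fewer than these are described, and some genes the rule names are not reported here. Other members named were chosen after their values were seen. The members, classes and tests were chosen with earlier results of these data known. Alternatives were other scalings, pseudocount, filters, windows, a replicate block, the spread from 9 libraries and leaving out each library; leaving out libraries for class counts, and for single genes on both scales, was added after seeing the data.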

Additional observations from a re-analysis of the deposited data

How the results depend on the processing

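Counts of genes called stayed within 1.5 times under every alternative run. With 1 library left out, 3629 to 4588 genes were higher and 5472 to 5752 lower on the deposited scale, and 2196 to 3289 and 3468 to 4101 on both scales, the highest count of rises coming without untreated 2. With a pseudocount of 0.1 the span of the median change over the deciles of level widened from 1.05 to 1.74. Of 364 genes checked, 7 turned direction under cyclic loess and 4 under quantile normalization, and not all are named here. Directions turned for Tmsb4x (-0.31) and Stmn2 (-0.26) under cyclic loess, and, under cyclic loess and quantile normalization, for Camk2a (-0.59 and -0.50, and -0.13 without untreated 2), Gria2 (-0.38 and -0.36), Dlg4 (-0.38 and -0.36) and Srf (0.08 and 0.13). The cause was not tested. Leaving out 1 library in turn moved these class counts by over 1.5 times. Rises ranged over 5 to 10 for GABA synapse genes, 3 to 7 for vesicle genes, 0 to 1 for NMDA receptors, 0 to 2 for calcium channels, 3 to 7 for Hcn, chloride and Trp channels, 1 to 2 for histone acetylation, 0 to 2 for histones, 6 to 14 for mitochondrial ribosomal proteins, 1 to 3 for tRNA synthetases, 21 to 43 for ubiquitin ligases, 3 to 6 for lysosomal genes, 3 to 8 for cholesterol genes, 2 to 6 for protocadherins and 1 to 5 for small nucleolar RNAs. Falls ranged over 3 to 5 for CREB genes, 2 to 5 for calmodulin genes, 3 to 5 for synaptic adhesion, 1 to 2 for sodium channels, 4 to 13 for histones, 0 to 1 for cytosolic and 2 to 7 for mitochondrial ribosomal proteins, 9 to 15 for translation factors, 3 to 7 for lysosomal genes, 0 to 1 for cholesterol genes, 2 to 5 for tubulins and actins, 3 to 10 for protocadherins and 2 to 4 for oligodendrocyte markers. A replicate block gave 4113 rises and 5912 falls on the deposited scale and 2849 and 4004 on both; among the genes described it changed the call of Grin3a alone. Same-numbered libraries deviated together with correlations of only -0.0204, 0.0298 and 0.0344. Differently numbered libraries ranged from -0.0686 to 0.0479. These values show no pairing by number, but with 3 libraries per group they cannot exclude it. At 4.34 to 4.59 M reads, Bic/4AP values below about 0.23 RPKM rest on less than 1 read per kilobase.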
